A study of Mus musculus with 20 samples.

Results

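The response of the High-Active line to amphetamine was read gene by gene in the striatum, by comparing 5 High-Active mice injected with amphetamine with 5 High-Active mice injected with saline. They are 10 of the 20 mice of the experiment, chosen by the line and treatment named in their labels. All were adult males of generation 17, and High-Active is a mouse line selectively bred from an intercross of 8 inbred strains for distance traveled in the home cage. The amphetamine group received d-amphetamine sulfate at a dose of 0.25 mg/kg, injected into the abdomen as a single acute dose, and the saline group received the vehicle. Tissue was taken 2 hours after the injection at about 6.5 months of age, and the dissected piece held the dorsal and ventral striatum of both sides. The remaining 10 mice are of the unselected Control line, raised from the same founders and treated in the same way, with 5 mice per treatment. Only 1 High-Active line was studied and its mice are outbred, so they differ in genotype, and the labels put the 10 High-Active mice in only 5 families. In 4 of these families mice of both treatments were sequenced, and amphetamine mouse 192 was the only member of its family. The study's methods, in contrast, describe each mouse as coming from a different family, so family values below rest on the labels.

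Amphetamine enters dopamine terminals through the dopamine transporter and releases dopamine from its vesicles into the extracellular space. The main neurons of the striatum are medium spiny neurons. Those of the direct pathway carry the D1 receptor, which raises cyclic AMP, and those of the indirect pathway carry the D2 receptor, which lowers it. Psychostimulants are known for inducing immediate early genes such as Fos, Arc and Egr1 in these neurons, a wave of transcription that fades within hours.

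Between 32388971 and 53710713 reads per High-Active mouse were counted on genes. Expression is given as CPM, the reads of a gene scaled to a common library size after normalization, as mean ± SD over 5 mice per group. Values of single mice are listed in the order 192, 415, 487, 872 and 905 for amphetamine and 197, 483, 499, 871 and 886 for saline, which are the animal numbers of the labels. Differences are log2 fold changes of amphetamine over saline with their standard error (SE), from edgeR's quasi-likelihood test fitted to all 20 mice. For genes shown mouse by mouse, an exact two-sided permutation test of the log2 CPM values is given before adjustment for the number of genes, and 0.00794 is the smallest p that 5 against 5 mice allow. Groups without overlap always give that p, so it is left out for genes chosen for having no overlap, and for genes chosen by a small p it is a description. Striatal projection neuron markers summed to between 6126 and 10021 CPM in saline mice and to between 6691 and 9153 CPM in amphetamine mice.

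The mice moved very different distances after amphetamine. The labels give a distance for the time after the injection without naming its unit, and it was 60.96, 100.68, 38.55, 187.07 and 519.2 in the amphetamine mice. In the saline mice it was 52.1, 69.3, 46.41, 88.06 and 50.28. Mouse 905 exceeded every other mouse, 872 and 415 exceeded every saline mouse, 192 lay inside the saline range, and 487 moved less than any saline mouse. The means were 181 ± 197 and 61.2 ± 17.4 (SD), and the exact permutation test of their difference gave p = 0.167 with 5 mice per group, two-sided. Without mouse 487 the difference grew from 120.1 to 156 with an exact p of 0.0238, and without mouse 905 it shrank to 35.6 with an exact p of 0.302. Home cage distances before the injection were 1.47 ± 0.994 km per day in the amphetamine group and 0.915 ± 0.248 in the saline group (exact permutation test, p = 0.254), and mouse 905 had already traveled 3.18 km per day. The means after the injection are not adjusted for this earlier activity. The study analyzed the distance with earlier activity as a covariate and describes a tendency to less movement after amphetamine in this line. Its line by treatment interaction was not significant, and the unadjusted means given here go the other way. Body mass was 34.3 ± 8.52 g and 33.7 ± 6.23 g (exact permutation test, p = 0.913).

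No gene passed the threshold of the main test. At an adjusted p value (Benjamini-Hochberg FDR) under 0.1, 0 of 14792 genes (0%) differed between amphetamine and saline High-Active mice in edgeR's quasi-likelihood test, and the smallest adjusted p was 0.315. At an unadjusted p under 0.05 there were 1247 genes, of which 731 were higher after amphetamine (4.94% of the genes tested) and 516 were lower (3.49%). Fold changes were small for most genes, with a median size of 0.074 on the log2 scale over all genes and 117 genes over 1. The number of genes past the adjusted threshold depended on the test and on single mice. DESeq2 called 131 genes (0.886%), 111 of them higher, and the likelihood-ratio test with robust dispersions called 280 (1.89%), 208 of them higher. Both tests shared 106 genes, which are 80.9% of the former and 37.9% of the latter, and 91 of the shared genes were higher after amphetamine. The quasi-likelihood test called 68 genes, 59 of them higher, without amphetamine mouse 415, which had the fewest reads. Mouse 415 also had the lowest sum of the cortical neuron markers described below among the amphetamine mice, at 557 CPM. Why the number rose without it was not tested. At an unadjusted p under 0.05 the number was 757 without mouse 192 and 557 (383 higher and 174 lower) with family as a fixed term. In the family fit mouse 192, alone in its family, adds nothing to the treatment difference. Since no gene passed the main test, genes are described below as higher or lower with their values, and none is called changed.

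**Figure D1:**
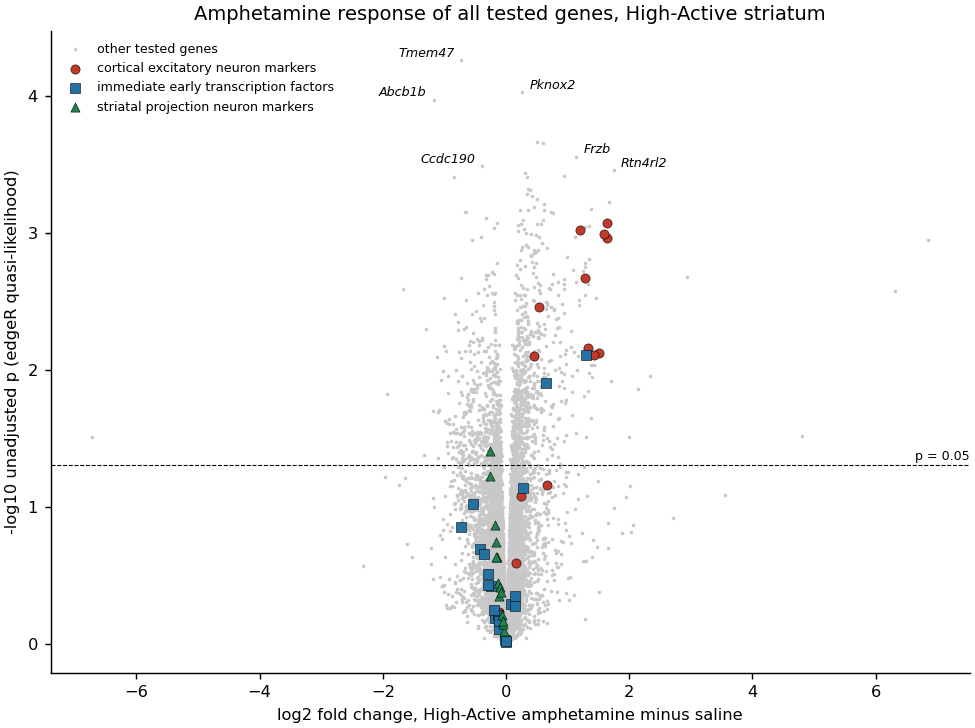
Each point is a gene of the 14792 tested, placed by its log2 fold change in High-Active mice (x axis, amphetamine minus saline) and by the negative log10 of its unadjusted p in edgeR's quasi-likelihood test (y axis, dashed line at 0.05). Cortical excitatory neuron markers (circles) lie to the upper right, with 10 of 14 above the line, striatal projection neuron markers (triangles) lie just left of 0, and 2 of 21 immediate early transcription factors (squares) lie above the line.

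Among the 25 gene lists examined, the largest median difference was in genes of cortical excitatory neurons, a cell type the dissection was meant to leave out. Of 14 such markers tested, 13 were higher after amphetamine, 10 of them at p under 0.05, with a median log2 fold change of 1.24 against -0.0062 over all genes. Over all genes 4.94% were higher and 3.49% lower at that level, and the counts of every list below stand against these shares. Slc17a7, the vesicular glutamate transporter of cortical terminals, read 546, 119.7, 256, 679 and 360.1 CPM in amphetamine mice. In saline mice Slc17a7 read 178, 93.5, 74.5, 86.1 and 215 CPM. It was highest in mice 872 and 192, then in 905 and 487, while amphetamine mouse 415 lay inside the saline range. The neuronal transcription factor Neurod2 gave 1.63 ± 0.41, Emx1, a homeobox gene of the dorsal forebrain, gave 1.63 ± 0.43, and Tbr1, a T-box factor of deep-layer and early cortical neurons, gave 1.28 ± 0.36. Summed over the 14 markers, CPM was 1343, 557, 777, 1513 and 977 in amphetamine mice and 668, 522, 437, 481 and 665 in saline mice. No marker was at 0 in any of the 10 mice, and the lowest, Neurod1, averaged 1.05 CPM in saline mice. Without mice 192 and 872 the median of the list was 0.66 and 4 of 14 were higher at p under 0.05. In Control mice the median was 0.35. In bulk tissue, a different number of cells of a type and a different amount of RNA per cell cannot be told apart, here or in any list below.

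The mean log2 CPM of the 14 cortical markers was added to the model as a covariate, so that each gene could be given with and without it. In that fit 414 genes (2.8%) were under an unadjusted p of 0.05 and 0 passed the adjusted threshold. Of the 1247 genes under 0.05 without the covariate, 1068 kept their sign and 137 were still under 0.05. Of the 106 genes called by both DESeq2 and the likelihood-ratio test, 15 were under an unadjusted p of 0.05 in this fit. The median fold change of the 731 higher genes went from 0.29 to 0.078, and that of the 516 lower genes from -0.29 to -0.17. The markers' own values in this fit carry no information, since they make up the covariate. Values with the covariate are given below for the 24 genes with the smallest p and for the main genes of the lists.

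The 12 genes with the smallest p among those higher after amphetamine had log2 fold changes between 0.26 and 1.75. Their adjusted p values were all 0.315 (edgeR's quasi-likelihood test with Benjamini-Hochberg adjustment). Pknox2, a homeobox transcription factor (chromosome 9, 36890982 to 37147407, minus strand, GRCm38), had the smallest p of these. It read 48.9, 41.5, 43.9, 46.7 and 43.0 CPM in amphetamine mice and 36.5, 39.4, 33.2, 38.1 and 39.6 CPM in saline mice. Every amphetamine mouse was above every saline mouse, with a log2 fold change of 0.26 ± 0.053, and with the cortical covariate it was 0.16 ± 0.061. Id2, an inhibitor of DNA binding by helix-loop-helix factors, read 58.3, 41.2, 44.5, 60.0 and 44.6 CPM after amphetamine. After saline Id2 read 33.8, 29.6, 39.4, 35.1 and 37.6 CPM, again without overlap (0.50 ± 0.11, exact permutation p = 0.00794). The higher Id2 values were those of mice 192 and 872, and its covariate value was 0.21 ± 0.11.

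Chrm3, the M3 muscarinic acetylcholine receptor, averaged 15.8 ± 2.96 CPM after amphetamine and 10.4 ± 1.79 CPM after saline (0.60 ± 0.13, exact permutation p = 0.0159). The groups overlapped by saline mouse 197, at 13.5 CPM. Kcnab2, an auxiliary subunit of voltage-gated potassium channels, read 301, 273, 248, 319 and 275 CPM against 242, 223, 226, 215 and 241 CPM, without overlap (0.31 ± 0.071, exact permutation p = 0.00794). Pde1a, a calmodulin-dependent phosphodiesterase that breaks down cyclic nucleotides, averaged 117 ± 20.2 CPM and 82.9 ± 9.28 CPM (0.50 ± 0.12, exact permutation p = 0.0159). Dock9, an exchange factor that activates the small GTPase Cdc42, averaged 146 ± 11.7 and 116 ± 9.42 CPM (0.34 ± 0.081, exact permutation p = 0.0159). With the cortical covariate Dock9 stood at 0.30 ± 0.11, whereas Kcnab2 stood at 0.13 ± 0.067, Chrm3 at 0.23 ± 0.11 and Pde1a at 0.24 ± 0.13.

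Frzb, a secreted antagonist of Wnt ligands, and Rtn4rl2, a receptor of the Nogo receptor family, had the largest fold changes of the 12. Frzb read 14.7, 4.76, 6.24, 13.8 and 6.66 CPM after amphetamine and 4.68, 3.21, 4.44, 4.89 and 3.81 CPM after saline. Rtn4rl2 read 12.8, 3.00, 6.00, 18.2 and 10.0 CPM after amphetamine and 3.72, 1.92, 2.61, 2.19 and 4.47 CPM after saline. In both genes mice 192 and 872 were highest and mouse 415 lay inside the saline range, as for the cortical markers. Their log2 fold changes of 1.13 ± 0.26 and 1.75 ± 0.40 became 0.36 ± 0.25 and 0.23 ± 0.18 with the cortical covariate.

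Grrp1, by contrast, did not follow the cortical markers. It read 2.35, 2.66, 2.24, 2.07 and 2.32 CPM in amphetamine mice and 1.17, 0.970, 1.28, 1.20 and 1.41 CPM in saline mice. The 5 amphetamine values lay close together and all were above the saline values, including that of mouse 415 (0.95 ± 0.22). With the covariate the value was 0.98 ± 0.28. Grrp1 was expressed near the filter of 1 CPM. Bcl2l11, which encodes the pro-apoptotic protein Bim, read 4.97, 4.24, 4.65, 4.71 and 4.02 CPM against 3.46, 2.89, 3.66, 3.50 and 3.38 CPM, also without overlap (0.42 ± 0.10, exact permutation p = 0.00794). Its covariate value was 0.34 ± 0.13. Slc36a1, a proton-coupled amino acid transporter, gave 0.36 ± 0.085, and Tpbg, a membrane glycoprotein, gave 0.39 ± 0.094. Neither of these overlapped between the groups, and with the covariate they stood at 0.16 ± 0.086 and 0.22 ± 0.11. Of the 12 genes, 7 showed no overlap, a property of 0.494% of all genes tested in this direction, and a small p favors such genes.

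**Figure D2:**
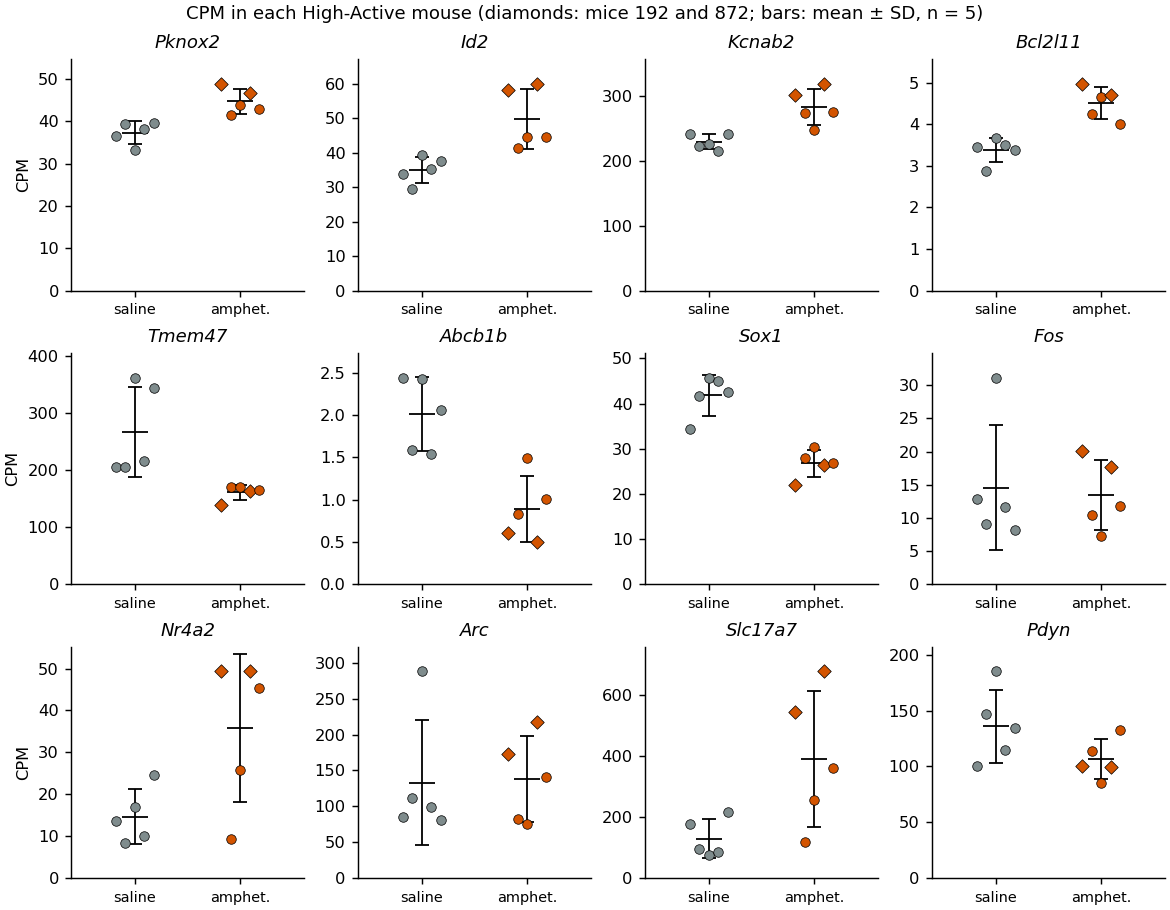
CPM (y axis, linear from 0) of 12 genes in each of the 10 High-Active mice, grouped by treatment (x axis), with mean ± SD and diamonds for mice 192 and 872. Pknox2, Id2, Kcnab2, Bcl2l11, Tmem47, Abcb1b and Sox1 do not overlap between the groups, Slc17a7 and Nr4a2 are high in some amphetamine mice only, and Fos and Arc are highest in a saline mouse.

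The 12 genes with the smallest p among those lower after amphetamine were led by Tmem47, which encodes a membrane protein of cell junctions (chromosome X, 81070698 to 81097872, plus strand). Tmem47 read 139, 169.8, 172, 163 and 165 CPM in amphetamine mice and 205, 206, 363, 216 and 344 CPM in saline mice. All amphetamine mice were below all saline mice, and the saline mice split into 3 between 205 and 216 CPM and 2 at 344 and 363 CPM. The log2 fold change was -0.72 ± 0.14, and it was -0.59 ± 0.18 with the cortical covariate. Abcb1b, a P-glycoprotein that pumps drugs and other compounds out of cells (chromosome 5, 8798147 to 8866315, plus strand), read 0.609, 0.835, 1.5, 0.501 and 1.01 CPM after amphetamine. After saline Abcb1b read 2.44, 1.59, 2.43, 1.54 and 2.07 CPM, so the groups did not overlap at this low level (-1.17 ± 0.24). It gave -0.92 ± 0.29 with the covariate. Its paralog Abcb1a, with which it may share reads, gave 0.1 ± 0.13.

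Sox1, a transcription factor of neural progenitors that striatal neurons also express, read 22.0, 28.0, 30.4, 26.4 and 26.9 CPM against 34.3, 41.6, 45.7, 45.0 and 42.7 CPM. The groups did not overlap (-0.65 ± 0.16, exact permutation p = 0.00794), and the covariate value was -0.41 ± 0.20. Hmgn1, a nucleosome-binding protein with many retrocopies in the genome, gave -0.19 ± 0.048. Numa1, a nuclear and spindle protein, gave -0.15 ± 0.038, and the RNA-binding protein Hnrnph3 gave -0.24 ± 0.065. Numa1 and Hnrnph3 were among the genes without overlap despite their small fold changes. With the covariate Hmgn1 was -0.17 ± 0.064, Numa1 -0.070 ± 0.040 and Hnrnph3 -0.093 ± 0.068. Numa1 averaged 117 ± 4.95 CPM and 129.7 ± 4.16 CPM.

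Gria1, the AMPA glutamate receptor subunit GluA1, was abundantly expressed and differed by a small amount. It read 467, 486, 459, 469 and 492 CPM after amphetamine and 484, 525, 566, 525 and 530.2 CPM after saline. Only saline mouse 197 lay inside the amphetamine range (-0.15 ± 0.040, exact permutation p = 0.0238), and the covariate value was -0.12 ± 0.052. Inpp5f, an inositol 4-phosphatase of the endocytic pathway, averaged 229 ± 28.8 CPM and 287 ± 16.9 CPM (-0.33 ± 0.082, exact permutation p = 0.0159). Tnip2, an inhibitor of NF-kappaB signaling, gave -0.55 ± 0.14, and Drc1, a component of motile cilia, gave -0.41 ± 0.11. Fndc9 and Ccdc190 gave -0.67 ± 0.17 and -0.39 ± 0.088. The covariate values were -0.18 ± 0.092 for Inpp5f, -0.35 ± 0.18 for Tnip2, -0.29 ± 0.13 for Drc1, -0.42 ± 0.19 for Fndc9 and -0.19 ± 0.093 for Ccdc190. No overlap was seen in 6 of these 12 genes, against 0.399% of all genes tested. The adjusted p values of the 12 ranged from 0.315 to 0.337 (edgeR's quasi-likelihood test with Benjamini-Hochberg adjustment).

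Across the 24 genes, the cortical covariate left a median of 46.9% of the log2 fold change of the higher genes and 63.6% of that of the lower genes. Under it 4 of the 12 higher genes (Pknox2, Grrp1, Dock9 and Bcl2l11) and 6 of the 12 lower genes (Tmem47, Abcb1b, Fndc9, Hmgn1, Drc1 and Gria1) stayed under an unadjusted p of 0.05. The families give another view, because in the family of mice 415 and 886 the cortical score was lower in the amphetamine mouse, by 0.3 on the log2 scale. It was higher in the amphetamine mouse in the remaining 3 families, by 0.46 to 1.8. In the family of 415 and 886, which is 1 pair of mice, Rtn4rl2 alone of the 12 higher genes was lower in the amphetamine mouse, at -0.57. Grrp1 was higher by 0.9, Bcl2l11 by 0.32, Dock9 by 0.14 and Id2 by 0.13. Genes that shrank with the covariate were also higher there, such as Chrm3 by 0.44, Frzb by 0.32 and Pde1a by 0.31. The difference there was -1.02 for Tmem47 and -0.61 for Sox1. Of the higher genes 10 of 12, and of the lower genes 8 of 12, had the reported sign in all 4 families. Among all tested genes 4.12% were higher and 4.24% lower in all 4 families, and the 24 genes were selected on the same mice.

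**Figure D3:**
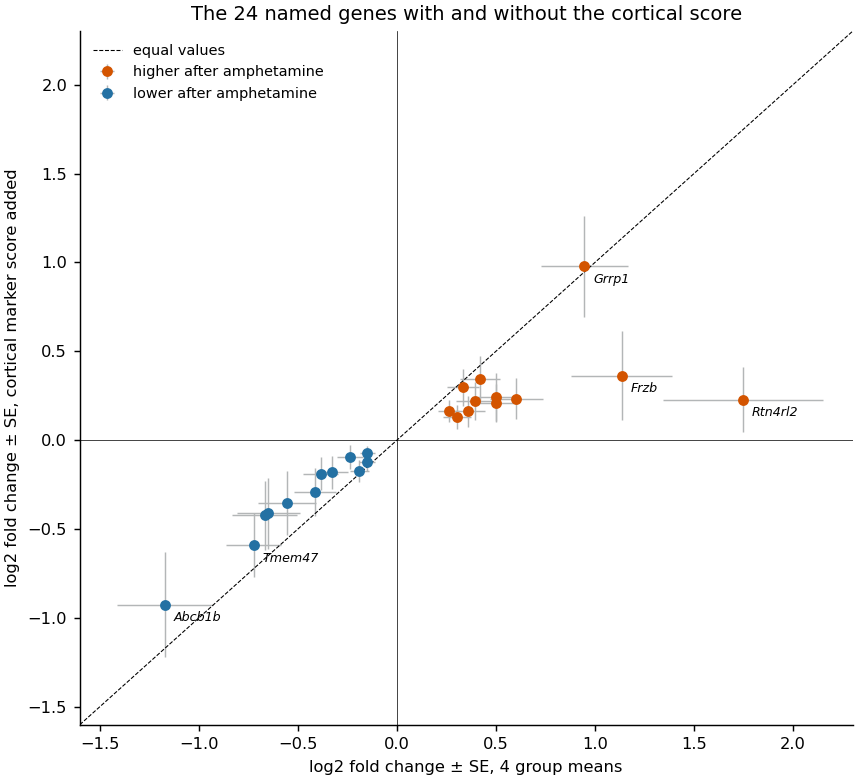
Log2 fold change ± SE of the 24 genes in the model of 4 group means (x axis) and with the mean cortical marker score added (y axis), with a dashed line where both are equal. Grrp1 lies near the dashed line, Tmem47 and Abcb1b lie a little nearer to 0 than the line, and Rtn4rl2 and Frzb lie far below it.

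Immediate early transcription factors are the genes that stimulants are best known to induce, and as a list they were not higher 2 hours after the injection. Of 21 tested, 6 were higher, 2 of these at p under 0.05, where 4.94% of all genes were higher. At p under 0.05 0 were lower, and the median log2 fold change was -0.12 (Control mice 0.19). Fos, the founding member, read 20.1, 10.5, 7.28, 17.7 and 11.9 CPM after amphetamine and 12.9, 9.03, 31.1, 11.6 and 8.10 CPM after saline. The highest Fos value of the 10 mice was that of saline mouse 499, and the log2 fold change was -0.11 ± 0.41 (exact permutation p = 0.976). Without mouse 499 it was 0.37. Egr1 gave -0.13 ± 0.26, Fosb -0.53 ± 0.30 and Egr2 -0.73 ± 0.48. Mouse 499 was the highest of the 10 in each of them, and the summed CPM of the list was 958, 576, 578, 1011 and 868 in amphetamine mice and 632, 782, 1396, 672 and 723 in saline mice.

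Nr4a2 was the exception in size. This orphan nuclear receptor, required by midbrain dopamine neurons and induced by activity in the forebrain, read 49.3, 9.41, 25.9, 49.3 and 45.5 CPM after amphetamine and 13.6, 8.23, 17.0, 9.96 and 24.5 CPM after saline. Mice 192, 487, 872 and 905 were above every saline mouse and mouse 415 was near the bottom (1.29 ± 0.43, exact permutation p = 0.0635). The cortical markers had a similar order over the mice, and with the cortical covariate Nr4a2 was -0.26 ± 0.33. Ier2, a small nuclear protein, gave 0.65 ± 0.24 and 0.19 ± 0.27 with the covariate. Csrnp1 was also higher after amphetamine, with that sign in 3 of the 4 families that had both treatments. Without mice 192 and 872, 0 of the 21 were under 0.05.

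The transcription factor CREB, which is activated by cyclic AMP signaling, binds the cyclic AMP response element in many immediate early promoters. The promoters of Nr4a2 and Fos are shown because, within this list, Nr4a2 had the smallest p and Fos is the standard marker of a stimulant response. Each line runs 5′ to 3′ from 250 bases before to 50 bases after the start of transcription, from RefSeq (GRCm38.p6), with the core TGACG of this element, or its reverse complement CGTCA, in capitals.
Nr4a2, chr2:57123954-57124253, minus strand: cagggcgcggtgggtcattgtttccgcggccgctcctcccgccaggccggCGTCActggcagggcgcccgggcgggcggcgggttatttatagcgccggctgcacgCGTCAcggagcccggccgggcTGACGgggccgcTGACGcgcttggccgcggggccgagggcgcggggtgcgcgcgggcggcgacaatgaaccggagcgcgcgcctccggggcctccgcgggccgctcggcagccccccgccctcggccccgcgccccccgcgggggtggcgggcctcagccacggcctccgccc
Fos, chr12:85473640-85473939, plus strand: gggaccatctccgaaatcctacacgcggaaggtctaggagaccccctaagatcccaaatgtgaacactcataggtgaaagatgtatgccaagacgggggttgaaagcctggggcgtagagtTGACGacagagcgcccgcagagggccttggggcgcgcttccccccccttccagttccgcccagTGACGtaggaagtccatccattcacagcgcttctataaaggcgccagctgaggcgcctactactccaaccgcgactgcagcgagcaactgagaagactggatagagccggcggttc
Nr4a2 held 4 such cores and Fos 2, and neither held the full palindrome TGACGTCA. Of the 21 tested members, 17 had at least 1 promoter in the set searched. The full list of 23 genes, with the untested Fosl1 and Atf3 counted, had 27 promoters in all. Of these promoters, 20 (74.1%) held the core on either strand. Over all 32851 promoters the share was 20.8%, without matching for base composition. The letters are a description of these windows only.

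Effector genes induced by neuronal activity lay on both sides of 0. Of 27 tested, 14 were higher and 2 of these were under p of 0.05, where 4.94% of all genes were higher. The median was 0.0037 on the log2 scale. Arc, which regulates AMPA receptor trafficking at the synapse, read 173, 82.6, 75.9, 217 and 141 CPM after amphetamine and 84.6, 112, 288, 99.6 and 81.1 CPM after saline, with mouse 499 again the highest (0.051 ± 0.46, exact permutation p = 0.817). Homer1, a postsynaptic scaffold, gave 0.018 ± 0.22. The members under 0.05 were Nrn1, at 1.19 ± 0.31, and the neurotrophin Bdnf, at 1.06 ± 0.35. Nrn1 is also on the cortical marker list, and Bdnf gave -0.11 ± 0.27 with the cortical covariate. Phosphatases and Sprouty proteins that feed back on MAP kinase signaling had 0 of 16 members under 0.05, with values from -0.23 for Dusp14 to 0.20 for Dusp1.

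Neuropeptides of the striatum lay on both sides of 0. Pdyn, the dynorphin precursor of the direct pathway, read 101, 114, 85.4, 99.3 and 133 CPM after amphetamine and 100.3, 147, 185, 114 and 134 CPM after saline. The groups overlapped, since saline mice 197 and 871 were inside the amphetamine range (-0.36 ± 0.16, exact permutation p = 0.0794). Tac1, the substance P precursor of the same neurons, gave -0.27 ± 0.12, Nts, the neurotensin precursor, gave -0.68 ± 0.28, and Penk, the enkephalin precursor of the indirect pathway, gave -0.26 ± 0.13. Cck gave 1.25 ± 0.35 and Vip 1.17 ± 0.39. Both are peptides abundant in cortex, and they gave 0.016 ± 0.11 and -0.15 ± 0.24 with the cortical covariate. In all, 2 of 11 were higher and 3 lower at p under 0.05, where 4.94% of all genes were higher and 3.49% lower, and without mice 192 and 872 0 were higher and 0 lower at that level.

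Genes of dopamine signaling had small fold changes below 0, none of which passed a test. Without a covariate 17 of 17 tested receptors and signaling genes had negative fold changes, 0 at p under 0.05, with a median of -0.14 (Control mice 0.050). Without mice 192 and 872 the median was -0.060 and 4 of 17 were above 0, and with the cortical covariate the median was -0.081 with 4 above 0. The adenosine receptor Adora2a gave -0.18 ± 0.12 and the dopamine receptor Drd3 -0.47 ± 0.31. The sum of the list was 7780.4, 6951, 7690.3, 7223 and 9517 CPM in amphetamine mice and 6365, 10362, 9224, 6841 and 9809.5 CPM in saline mice. The saline mice split into 483, 499 and 886, with the higher sums, and 197 and 871, which were below all amphetamine mice, so the groups overlapped. Striatal projection neuron markers had 14 of 14 members lower, 1 at p under 0.05, with a median of -0.12. Markers of the direct pathway had 8 of 9 members lower, 3 at p under 0.05, and those of the indirect pathway 7 of 8, 1 at p under 0.05, where 3.49% of all genes were lower. Without mice 192 and 872, 0 of both lists were lower at p under 0.05. Isl1, a LIM homeobox factor of direct pathway neurons, read 12.4, 17.0, 15.4, 11.5 and 13.8 CPM against 15, 21.5, 22.5, 21.7 and 17.3 CPM (-0.49 ± 0.15, exact permutation p = 0.0317). With the cortical covariate Isl1 was -0.067 ± 0.13.

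Slc18a2, the vesicular monoamine transporter that amphetamine acts on, had the largest difference among genes of dopamine synthesis, transport and breakdown. It read 0.954, 2.75, 4.16, 1.19 and 1.15 CPM after amphetamine and 6.06, 3.33, 4.26, 5.95 and 5.49 CPM after saline. Mice 192, 872 and 905 were lowest, near 1 CPM, while 415 and 487 were near or inside the saline range (-1.30 ± 0.41, exact permutation p = 0.0159). With the cortical covariate Slc18a2 was -0.75 ± 0.46. The summed thalamic and septal markers were also lowest in mice 192, 872 and 905, at 98.4, 105 and 88.3 CPM, and highest in saline mouse 197, at 354 CPM. Whether the Slc18a2 difference follows these markers was not tested. The other 7 tested members, Th at -0.34 ± 0.26 among them, were not under 0.05. The dopamine transporter gene Slc6a3 was below the filter.

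Receptor subunits differed by small amounts. Of 22 glutamate receptor genes, 2 were higher and 1 was lower at p under 0.05, where 4.94% of all genes were higher and 3.49% lower. Besides Gria1, the receptor genes at that level were Grik4 (0.18 ± 0.069) and Gria3 (0.18 ± 0.079). Of 13 GABA-A receptor subunits, Gabra5 was higher and Gabrg3 lower. Gabra5, a subunit of extrasynaptic receptors, read 50.3, 40.9, 42.9, 47.6 and 43.1 CPM against 39.2, 38.7, 37.1, 38.0 and 36.1 CPM, without overlap (0.25 ± 0.063, exact permutation p = 0.00794), and 0.092 ± 0.062 with the covariate. Gabrg3 gave -0.22 ± 0.088. Synaptic vesicle proteins had 20 of 23 members higher, 10 at p under 0.05, a larger share than the 4.94% of all genes. Slc17a7 was the first of them, followed by Cplx1, a regulator of vesicle fusion (0.24 ± 0.065), the SNARE protein Stx1a (0.85 ± 0.24) and Sv2b (0.69 ± 0.20). The count was 2 of 23 without mice 192 and 872 and 2 of 23 with the cortical covariate. Cplx1 kept 0.19 ± 0.082 there, and Stx1a had -0.052 ± 0.069.

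Genes that respond to the clock, to stress hormones or to heat showed few members under 0.05. Of 20 clock genes, 2 were higher at p under 0.05, where 4.94% of all genes were higher. The 2 clock genes were Rora, a nuclear receptor that activates the clock gene Bmal1, and the repressor Bhlhe40 (0.22 ± 0.10). Rora read 70.4, 88.3, 81.5, 69.6 and 64.5 CPM against 73.6, 51.8, 51.8, 57.2 and 47.7 CPM, and only saline mouse 197 was above any amphetamine mouse (0.41 ± 0.11, exact permutation p = 0.0317). It kept 0.43 ± 0.14 with the cortical covariate. Of 21 glucocorticoid response genes 0 were under 0.05, and Mertk was nearest (0.17 ± 0.080). Heat shock and chaperone genes had 25 of 26 members lower, 1 of them at p under 0.05, Hspe1 (-0.16 ± 0.073), with a median of -0.12 and of -0.080 in Control mice. The protein-coding genes of the mitochondrial genome had 0 of 12 under 0.05 and a median of 0.011.

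**Figure D4:**
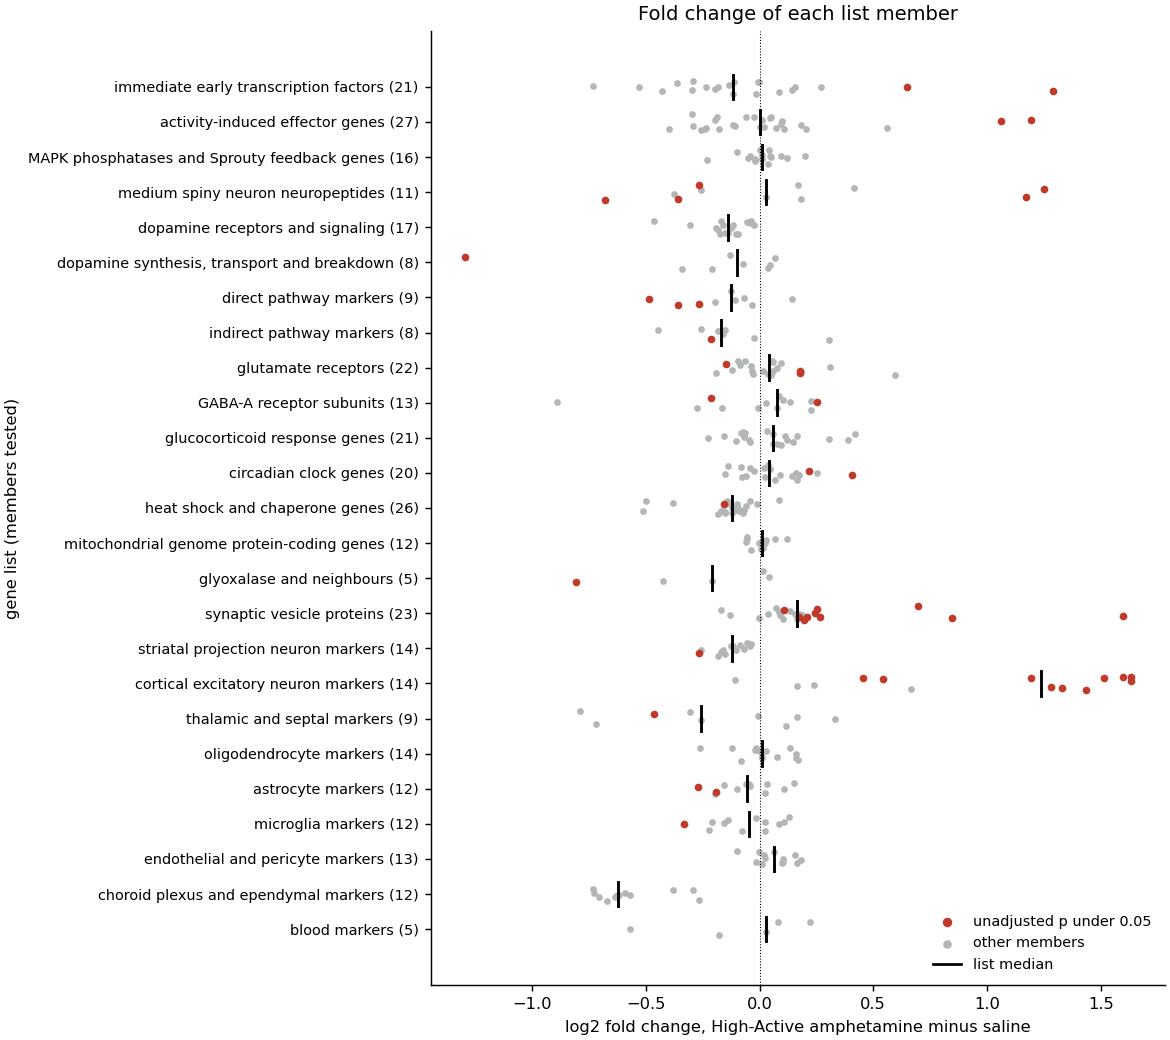
Log2 fold change of amphetamine over saline in High-Active mice (x axis) of each tested member of 25 gene lists (y axis, number of members in brackets), in red where the unadjusted p was under 0.05, with a black bar at each list's median. The cortical excitatory list, with a median of 1.24, lies furthest to the right, and the choroid plexus and ependymal list, with a median of -0.62 and no red point, lies furthest to the left in this fit, and its median turned to 0.27 with the cortical covariate.

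Markers of cells that are not striatal neurons differed less than those of cortical neurons, or varied within groups. Oligodendrocyte markers had 0 of 14 members under 0.05 and a median of 0.011. Astrocyte markers had 2 of 12 lower at p under 0.05, Sox9 (-0.27 ± 0.11) and the gap junction gene Gja1 (-0.19 ± 0.076), where 3.49% of all genes were lower. Microglia markers had 1 of 12 lower, the adaptor Tyrobp (-0.33 ± 0.14), whose groups did not overlap, as in 0.399% of all genes. Endothelial and pericyte markers had 0 of 13. Choroid plexus and ependymal markers were lower in 12 of 12, 0 at p under 0.05, and their sum was 56.0, 144, 973, 57.1 and 51.4 CPM in amphetamine mice and 647, 67.5, 221, 908 and 76.5 CPM in saline mice. Mouse 487 of the amphetamine group and mice 197 and 871 of the saline group held most of this signal, and the groups overlapped. The median of -0.62 was -0.13 without mice 192 and 872, and it turned to 0.27 with the cortical covariate, where 7 of 12 were above 0. Blood markers summed to between 16.8 and 230.3 CPM in saline mice and between 18.2 and 366 CPM in amphetamine mice, highest in mouse 905. Thalamic and septal markers had 1 of 9 lower at p under 0.05, the channel gene Trpc4 (-0.46 ± 0.15), again without overlap. Zic1, a marker of septum in this list, was at 24.0, 72.0, 94.5, 27.6 and 22.1 CPM in amphetamine mice and 115, 54.8, 70.2, 102 and 73.6 CPM in saline mice, lowest in 192, 872 and 905. The median of this list turned from -0.26 to 0.18 without mice 192 and 872 and to 0.29 with the cortical covariate. The part of these cell type markers in the gene differences above was not tested beyond the cortical covariate and the omission of mice 192 and 872.

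Separation of the groups was also used to rank genes, and 132 genes had no overlap between the 5 amphetamine and the 5 saline mice. Of these, 73 were higher (0.494%) and 59 lower (0.399%). The genes of this kind with the largest fold changes were expressed near the filter. Pappa2, a protease that cleaves insulin-like growth factor binding proteins, read 5.32, 3.06, 3.37, 3.50 and 3.80 CPM after amphetamine and 1.88, 0.920, 0.846, 2.76 and 1.5 CPM after saline. It was higher in every amphetamine mouse (1.28 ± 0.37) and gave 1.20 ± 0.49 with the cortical covariate. The calcium channel gene Trpv6 gave 1.26 ± 0.47, and Il2rb, a subunit of the interleukin 2 receptor, gave 0.79 ± 0.60. Grrp1, described above, completed the 4 higher genes. Among the lower genes, Prok2, which encodes the secreted peptide prokineticin 2, read 0.447, 0.588, 0.288, 0.355 and 0.283 CPM against 0.840, 1.49, 1.51, 1.68 and 0.704 CPM (-1.68 ± 0.48), and -0.94 ± 0.62 with the covariate. Glp1r, the receptor of glucagon-like peptide 1 and the target of an appetite-reducing class of drugs, read 1.66, 2.75, 2.02, 1.29 and 1.41 CPM against 3.21, 2.76, 2.97, 4.10 and 2.93 CPM (-0.81 ± 0.28). With the covariate Trpv6 was 0.64 ± 0.54, Il2rb 0.69 ± 0.77 and Glp1r -0.62 ± 0.35. Lrrc18 gave -0.73 ± 0.25 and -0.32 ± 0.29 with the covariate, and Abcb1b also belonged to this set.

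The comparison with Control mice asks whether the response to amphetamine depends on the line. The line by amphetamine interaction gave 0 of 14792 genes at FDR under 0.1 in the quasi-likelihood test, 0 with DESeq2 and 6 with the likelihood-ratio test, and 440 genes (2.97%) were under an unadjusted p of 0.05. Of the 731 genes higher in High-Active mice at p under 0.05, 637 were also higher in Control mice, with a median of 0.11 there, where 49% of all genes were higher. Of the 516 lower genes, 367 were lower in Control mice, with a median of -0.055. The responses of both lines rest on different mice but on 1 fit. The cortical markers had a median of 0.35 in the Control line too. Their sums there were 1051 to 1414 CPM after amphetamine and 670 to 1332 CPM after saline. With the cortical covariate, the High-Active median was 0.078 for the 731 higher genes and -0.17 for the 516 lower genes. Whether the signs shared by the lines follow the cortical markers was not tested. All 12 of the named higher genes and 9 of the 12 lower genes had the same sign in Control mice, and their interaction p was under 0.05 for 5 and 8 genes, although a selection on High-Active values favors this. The smallest interaction p values of the 24 genes were those of Gria1, Abcb1b and Tmem47, before adjustment. In Control mice Gria1 gave 0.044 ± 0.040, Abcb1b -0.066 ± 0.23 and Tmem47 -0.085 ± 0.14. Hnrnph3, Numa1 and Pde1a, in contrast, had Control values of -0.27 ± 0.066, -0.11 ± 0.038 and 0.34 ± 0.12, close to their High-Active values. Tmem47 averaged 161 CPM in Control amphetamine and 171 CPM in Control saline mice. Both were near the High-Active amphetamine mean of 162 CPM, and the High-Active saline mean was 267 CPM. Abcb1b differed from this, with Control means of 2.58 and 2.71 CPM against High-Active means of 0.890 after amphetamine and 2.01 after saline. Gria1 had Control means of 512 and 496 CPM, between its High-Active means of 475 and 526 CPM.

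Glo1, which encodes the detoxifying enzyme glyoxalase 1 and lies in a region that is duplicated in some mouse strains (chromosome 17, 30584936 to 30626871, minus strand), was not under an unadjusted p of 0.05 in High-Active mice. It read 218, 248, 139, 221 and 168 CPM after amphetamine and 255, 214, 212, 246 and 219.9 CPM after saline. Mice 487 and 905 were the lowest of the 10, and the log2 fold change was -0.21 ± 0.20. With the cortical covariate it was -0.48 ± 0.23, and leaving out 1 mouse moved it between -0.30 and -0.10. In Control mice it was 0.53 ± 0.20, from 86.2 ± 33.7 to 125 ± 18.8 CPM, a difference between the lines of -0.74 on the log2 scale that was under an unadjusted p of 0.05. Glp1r, on the same chromosome (30901817 to 30940791), gave 0.40 ± 0.29 in Control mice. Of the 5 genes tested in the Glo1 region or pathway, Glp1r alone was under 0.05 in High-Active mice. Glo1 was 1 of the 6 genes that the likelihood-ratio test called for the interaction (adjusted p = 0.0426 by that test), and the rest were Sertad4, Cyp4f16, Tcea1-ps1, Rtl8a and Gm3510.

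**Figure D5:**
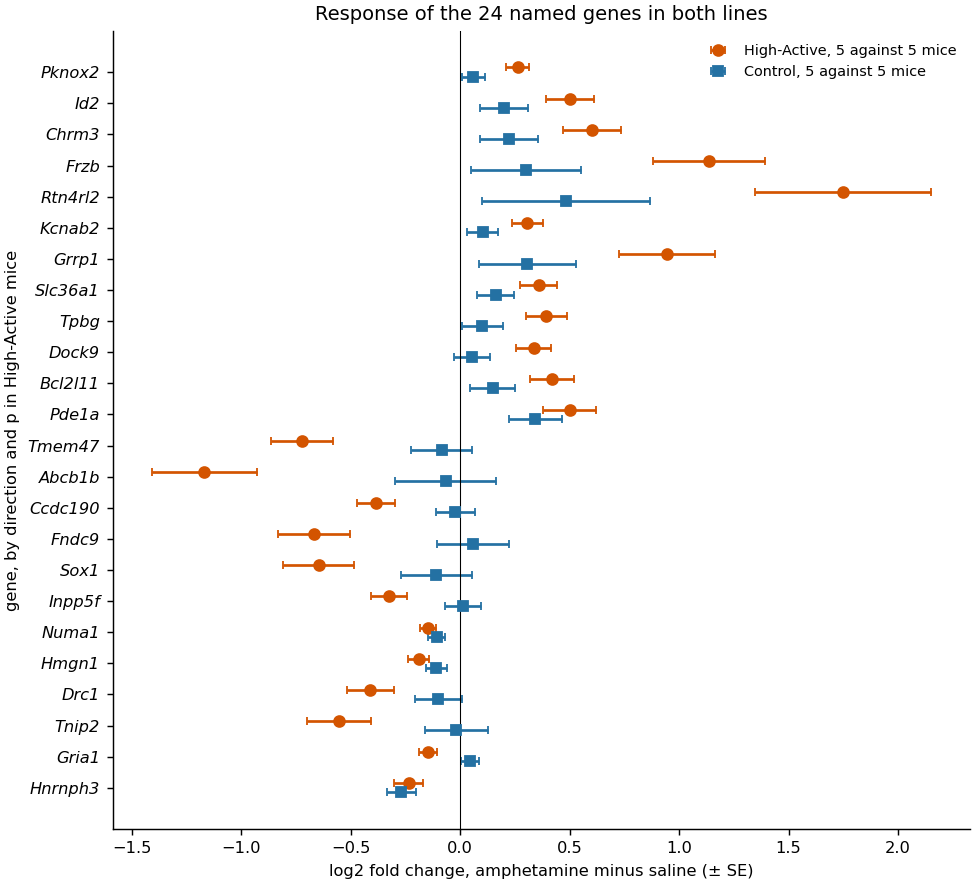
Log2 fold change of amphetamine over saline ± SE (x axis) of the 24 genes with the smallest p in High-Active mice (y axis), in High-Active (circles) and Control mice (squares). The High-Active value is further from 0 in 23 of 24 genes, with Hnrnph3 as the exception, as selection on the High-Active p favors.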

How the data were processed

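Striatal RNA of 20 mice was sequenced from strand-specific libraries, which the authors pooled and ran over several lanes. Per the labels and the study's methods, the authors made the deposited counts with CASAVA 1.8.2, TopHat2 2.0.10, Bowtie2 2.1.0, SAMtools 0.1.19 and HTSeq 0.6.1 on the Ensembl GRCm38 annotation. The values are whole-number counts of reads per gene. Whether counting used the strand is not given in the sources used here, so overlapping and antisense genes are uncertain. The 5 summary rows that name no gene held 15.97% to 17.49% of the reads and were left out.

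Of 39179 genes, 14792 had over 1 CPM in at least 3 of the 20 mice. They were fitted with edgeR 4.0.16 in R 4.3.3, with TMM normalization, 4 group means (line by treatment), the quasi-likelihood test, and Benjamini-Hochberg adjustment over all tested genes with a threshold of 0.1. Depth was between 32388971 and 53710713 reads on genes in High-Active mice. Distances and single genes were tested with exact two-sided permutation tests (252 regroupings of 5 against 5 mice). The scripts were tested on simulated data. DESeq2 1.42.0, limma 3.58.1, the likelihood-ratio test, other filters and scalings, a family term and covariates were tried as alternatives, as was leaving out each mouse in turn. Omitting mice 192 and 872 together and the cortical score alone were added after seeing the data.

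The genes described were the 12 with the smallest p in each direction, up to 4 per gene list with the smallest p, the 4 with the largest fold change in each direction among genes without overlap, Glo1, Fos, Arc, Egr1 and Homer1, and the 3 with the smallest interaction p. Genes with provisional names were passed over, 1 in each direction among the first. Egr2, Tbr1, Neurod1, Abcb1a and the interaction calls of the likelihood-ratio test other than Glo1 were named after their values were seen. The members, the gene lists and the rules were chosen with earlier results of these data known. Promoter sequences came from RefSeq.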

Additional observations from a re-analysis of the deposited data

Results flagged for a closer look

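In 6 of 78 groups of 5 mice, covering 35 genes and 4 other measures, the highest or lowest mouse lay far from the others by Dixon's ratio, which chance gives in about 1 of 20 groups. Saline mouse 197 had 13.5 CPM of Chrm3, against 9.15 to 10.2 CPM in the other saline mice. Saline mouse 499 had 288 CPM of Arc against 81.1 to 112 CPM, and 0.275 CPM of Il2rb against 0.590 to 0.696 CPM. Amphetamine mouse 192 had 139 CPM of Tmem47, against 163 to 172 CPM in the other amphetamine mice. Amphetamine mouse 905 had traveled 3.18 km per day in the home cage before the experiment, against 0.628 to 1.36 km per day. Amphetamine mouse 415 had 32388971 reads on genes, against 49019871 to 53710713 in the rest of its group.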

How the results depend on the processing

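The number of genes under an adjusted p of 0.1 in High-Active mice was 0 as reported, 280 with the likelihood-ratio test, 131 with DESeq2 (3 genes had no adjusted p) and 1 (Rps13-ps1) with the home cage distance as a covariate. Leaving out 1 mouse gave 0 to 68 genes, with 68 without mouse 415, 1 without 197 (Mgst3) and 1 without 487 (Abcb1b, -1.44, adjusted p = 0.0522 by edgeR's quasi-likelihood test). The number under an unadjusted p of 0.05 was 557 with family as a fixed term, 817 with home cage distance, 442 with cortical and oligodendrocyte scores, 414 with the cortical score alone and 455 without mice 192 and 872, and 757 to 1672 when 1 mouse was left out, with the lowest without mouse 192. The interaction had 6 genes with the likelihood-ratio test. The difference in distance moved was 35.6 to 156 when 1 mouse was left out. All 24 genes with the smallest p kept their direction in each of up to 23 alternatives, and 52 of the 64 genes tried never reversed. The 24 genes were selected on these mice and every alternative uses the same counts, so a kept direction is favored by the selection. Of 1471 values of these genes under alternatives, 37 reversed. With the likelihood-ratio test Fos was 0.18 and Egr1 0.067 on the log2 scale. With both scores as covariates Fos was 0.028, Homer1 -0.040, Nr4a2 -0.15, Cck -0.0095, Vip -0.23, Nts 0.012, Slc17a7 -0.030, Stx1a -0.072 and Emx1 -0.048. Slc17a7 and Emx1 are themselves part of the cortical score, so their reversals carry no information, although they are counted among the 37. With the cortical score alone Arc was -0.58, Homer1 -0.24, Nr4a2 -0.26, Bdnf -0.11, Vip -0.15 and Stx1a -0.052. With home cage distance Arc was -0.046 and Homer1 -0.093, with the family term Homer1 was -0.043, and without mice 192 and 872 Arc was -0.41 and Homer1 -0.19. Leaving out 1 mouse moved Fos between -0.30 and 0.37, Arc between -0.17 and 0.55, Egr1 between -0.25 and 0.14 and Homer1 between -0.11 and 0.18. The causes were not tested. The replicate numbers are animal numbers that no groups share, so the only pairing was by family. The fit with family as a term is the paired analysis given above, and its treatment difference rests on the 4 families with both treatments. The within-family correlation was 0.026, and intervals for genes near 1 CPM are limited by depth.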

Other observations

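Some of the genes with the largest fold changes rested on few mice. Of 13 genes with a log2 fold change over 2 in size, 9 had provisional names, and in 6 of the 13 a pair of mice held over 80% of the summed CPM. Gm47854 read 6.86 CPM in amphetamine mouse 192 and 3.43 CPM in mouse 415. Rps13-ps1 read 4.89 CPM and the T cell gene Ubash3a 2.31 CPM in amphetamine mouse 487, and Gm9008 read 1.49 CPM in saline mouse 499. In the other High-Active mice each of these genes was at or near 0 CPM.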
